A study of Rattus norvegicus with 12 samples.

Results

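All 12 small RNA libraries of the series, made from rat gastric mucosa, entered a single comparison: the 8 libraries from rats exposed to a mutagen against the 4 libraries from unexposed rats. The rule takes the exposed libraries together whether or not the rats were also treated, so that the miRNAs sought are those that differ from normal mucosa under exposure irrespective of treatment. The 4 normal libraries came from rats labelled as not treated. The 4 model libraries came from rats labelled as given the DNA-alkylating agent MNNG (N-methyl-N'-nitro-N-nitrosoguanidine) for 24 weeks. The protocol in the labels describes this as a composite model of chronic atrophic gastritis, with MNNG at 180 µg/ml in the drinking water, gavage of 2% sodium salicylate to fasted rats, and cycles of 2 fed days and 1 fasted day. The 4 XLHZ libraries came from rats labelled as having the same 24 weeks of MNNG and 60 days of XLHZ, the Xianglianhuazhuo herbal formula of the series title. No group had MNNG without the other 2 components of the model, so their effects cannot be told apart. The labels name no strain, age or sex. Whether each library is a rat of its own is also not stated. The p-values therefore set a group difference only against the spread among libraries of a group, which may be technical. The labels name no processing batch, and a batch that followed exposure could not be told apart from it.

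A miRNA is cut from a hairpin-shaped precursor whose 5′ and 3′ sides each can give a mature strand, called the 5p and the 3p arm. Usually 1 arm is loaded into Argonaute and kept, while the other is degraded, and the base pairing of positions 2 to 8 of the mature strand, the seed, directs the choice of target mRNAs. In the stomach, loss of gastric glands with inflammation is the setting in which intestinal-type epithelium and later cancer can arise, and the miR-17-92 cluster (proliferation) and the miR-34 family (induced by p53 after DNA damage) are among the miRNAs often studied there.

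The sequences of the miRNAs on which the comparison turned are shown so that arms of the same hairpin and relatives with the same seed can be told from each other. They were taken from RefSeq (build GRCr8), which held a mature sequence for 382 of the 417 miRNAs tested, and are written 5′ to 3′ with the seed in capitals. The first 4 belong to the miR-17-92 cluster and its paralogs.
miR-20a-3p: aCUGCAUUacgagcacuuaca
miR-20a-5p: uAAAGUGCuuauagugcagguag
miR-20b-3p: aCUGCAGUgugagcacuucugg
miR-18a-3p: aCUGCCCUaagugcuccuucu
The next 4 are both arms of the miR-34b and miR-34c hairpins.
miR-34b-3p: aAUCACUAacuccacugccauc
miR-34c-3p: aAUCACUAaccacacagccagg
miR-34b-5p: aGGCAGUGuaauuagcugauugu
miR-34c-5p: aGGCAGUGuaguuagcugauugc
The last 2 belong to further miRNAs with a large fold change.
miR-551b-3p: gGCGACCCauacuugguuucagu
miR-196a-5p: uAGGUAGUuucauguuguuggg
The 3p arms of miR-34b and miR-34c share the seed AUCACUA with each other and with no other miRNA of the tables that had a sequence. Their 5p arms carry the seed GGCAGUG, which miR-34a-5p, miR-449a-5p and miR-449c-5p also have. The seed CUGCAUU of miR-20a-3p occurred in no other miRNA with a sequence. Aligned from the 5′ end without gaps, miR-20a-3p and miR-20b-3p were identical at 15 of 21 positions, miR-34b-3p and miR-34c-3p at 17 of 22, and their 5p arms at 21 of 23.

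Depth ran from 9094962 to 11556058 mature miRNA counts a library, with 530 to 561 detected miRNAs. Levels are given as TMM-scaled CPM, in which each library's depth is corrected for a few abundant miRNAs taking a larger share of its counts. Epithelial miR-200a-3p was abundant in every group (23662 to 28614 CPM in normal, 18109 to 30086 CPM in exposed libraries), as was miR-375-3p of endocrine cells (13773 to 19685 and 5099.7 to 16505 CPM). Smooth muscle miR-143-3p took 9.39% to 29.2% of all counts and was highest in model libraries 2 and 3. The RNA therefore also held miRNAs typical of the muscle wall, and in bulk tissue fewer cells of a type and less of a miRNA per cell cannot be told apart.

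Few miRNAs separated exposed from normal mucosa, and the 2 that passed the test were minor arms of their hairpins. In edgeR's quasi-likelihood test 2 of 417 miRNAs passed at an adjusted p (Benjamini-Hochberg) under 0.05, which is 0.48% of those tested. miR-20a-3p rose about 60.2-fold, and miR-34b-3p fell to 0.0947 of its normal level. Of the 417 miRNAs, 358 had a log2 fold change within 0.5 of 0, and 11 had one of 1 or more in size. Without adjustment, p was under 0.05 for 12 higher (2.88%) and 15 lower miRNAs (3.6%). All 8 exposed libraries lay above all 4 normal libraries for 3 miRNAs (0.719% of those tested), which were miR-20a-3p, miR-196a-5p and miR-18a-3p. In normal libraries these 3 had at most 9, 1 and 8 counts, under the filter's minimum of 10 counts. They were therefore tested only through their exposed libraries, and at such normal counts only a rise could be found. The exposed libraries lay below all 4 normal libraries for 4 miRNAs (0.959%), which were miR-34b-3p, miR-34c-3p, miR-203b-3p and let-7b-5p. With RLE factors, upper-quartile factors or library totals in place of TMM, 2 miRNAs lay wholly below.

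miR-20a-3p, the 3p arm of a hairpin in the miR-17-92 cluster, was the miRNA with the smallest p. It stood at 0.6098, 0.623, 0.809 and 0.485 CPM in normal libraries 1 to 4. In model libraries 1 to 4 it stood at 28.9, 18.5, 143 and 22.3 CPM, and in XLHZ libraries 1 to 4 at 28.3, 19.02, 22.4 and 26.3 CPM. The lowest exposed library was thus far above the highest normal one, and 7 of the 8 exposed libraries lay close together, with model library 3 alone higher. The counts behind these levels were 6 to 9 in the normal libraries and 166 to 1375 in the exposed ones. The log2 fold change of exposed against normal libraries was 5.91 (SE 0.77, adjusted p = 0.00115, edgeR), and it was 5.24 without model library 3, 5.17 with DESeq2 and 5.19 with limma-trend. In a fit with a mean for each of the 3 groups, the log2 fold change was 6.38 (SE 0.72) in the model, 5.22 there without model library 3, and 5.23 (SE 0.69) in XLHZ libraries. These values share the normal libraries. The difference between the exposed groups was itself tested and did not pass (XLHZ minus model -1.15, SE 0.54, adjusted p = 0.593, edgeR), and without model library 3 it was 0.03.

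The other arm of the hairpin, miR-20a-5p, which targets cell cycle regulators, stood at 1641 ± 170.1 CPM in normal libraries (mean ± SD, n = 4) and 1683 ± 426 CPM in exposed libraries (n = 8). The fold change on the log2 scale was 0.04 (SE 0.19, edgeR adjusted p = 0.982), and its sign turned with upper-quartile factors, on library totals, with limma-trend and without model library 3. The cluster is transcribed as 1 primary RNA, and its further arms gave values near 0 or did not pass. miR-18a-3p had 0.6799 ± 0.107 CPM in normal and 1.13 ± 0.171 CPM in exposed libraries (log2 fold change 0.73, SE 0.24, adjusted p = 0.444, edgeR). The groups did not overlap, but this rests on few counts, 7 to 8 in normal and 9 to 14 in exposed libraries. miR-17-5p, miR-17-1-3p, miR-19a-3p, miR-19b-3p and miR-92a-3p had log2 fold changes of 0.20, -0.07, 0.11, 0.12 and 0.00. Among the 21 tested arms of miR-17-92 and its paralogs 14 were higher and 7 lower, 1 passed, and the median was 0.11. Over all 417 miRNAs tested 228 were higher and 189 lower, 0.48% passed, and the median was 0.03. In the plot of both families by group, miR-20a-3p lies apart from the other arms of its cluster.

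**Figure D1:**
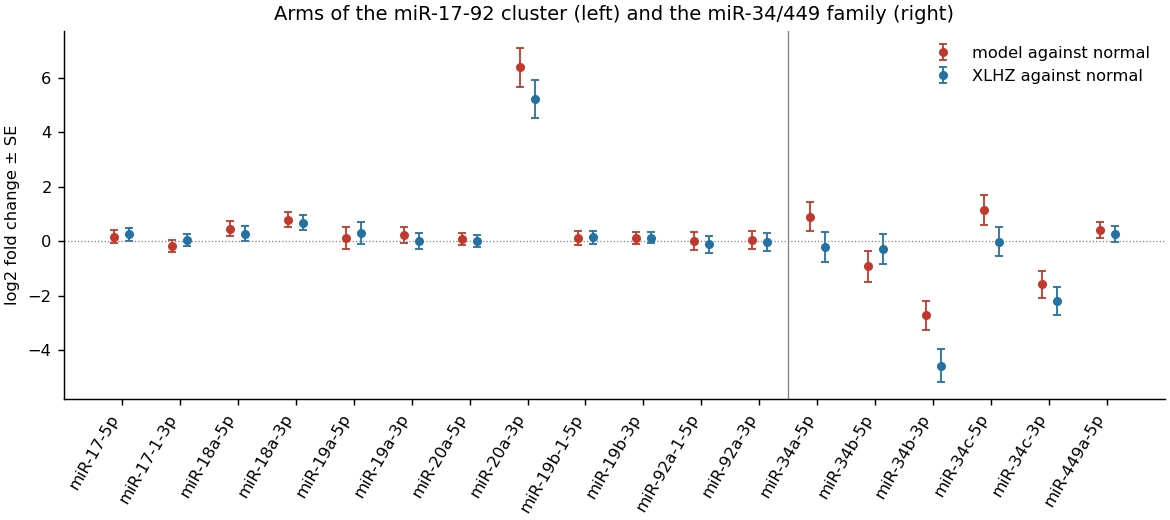
Log2 fold change (vertical axis, ± SE from edgeR) of the arms of the miR-17-92 cluster and of the miR-34 family and miR-449a in model (red) and XLHZ (blue) libraries against the same 4 normal libraries. miR-20a-3p lies at 6.38 and 5.23, miR-34b-3p at -2.73 and -4.57, and miR-34c-3p at -1.58 and -2.20.

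The count of miR-20a-3p has to be read beside that of miR-20b-3p, the matching arm of the paralogous cluster, which the authors' tables do not give alike. In the deposited table of normal and model libraries, miR-20b-3p had 3, 3, 7 and 5 counts in normal libraries 1 to 4 and 5, 2, 0 and 0 in model libraries 1 to 4. In the deposited table of model and XLHZ libraries, the same model libraries had 251, 152, 1003 and 254 counts of it, and XLHZ libraries 1 to 4 had 298, 195, 246 and 336. Across the 8 exposed libraries of that second table its count was 0.729 to 1.06 times that of miR-20a-3p in the same library. The counts of miR-20a-3p in the model libraries were the same in both tables. miR-20b-3p was left out of every test, and the part of read assignment in the level of miR-20a-3p was not tested. miR-20b-5p, the other arm of that paralog, averaged 6.595 ± 1.25 CPM in normal and 7.78 ± 1.73 CPM in exposed libraries (log2 fold change 0.24, adjusted p = 0.748, edgeR).

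miR-34b-3p was the 1 miRNA that fell and passed the test. Hairpins miR-34b and miR-34c are transcribed together, are induced by p53 and are abundant in ciliated cells. miR-34b-3p stood at 6.61, 4.71, 7.996 and 8.33 CPM in normal libraries 1 to 4, at 1.22, 1.68, 1.15 and 0.169 CPM in model libraries, and at 0.286, 0.673, 0.09696 and 0.0823 CPM in XLHZ libraries. Every exposed library lay below every normal one. The counts were 53 to 103 in normal libraries, 2 to 15 in model libraries and 1 to 7 in XLHZ libraries, so the exposed levels rest on few counts. The filter asks for about 10 counts in 4 libraries, and no exposed library but model libraries 1 to 3 reached that count (12, 15 and 11). miR-34b-3p was therefore tested only through its normal libraries, where it is high. Over the pooled counts of each group, scaled by library totals, the ratio of exposed to normal was 0.0860 (exact 95% interval 0.0628 to 0.116, which covers counting error only). Exposed minus normal was -3.40 on the log2 scale (SE 0.52, edgeR adjusted p = 0.00334). Leaving out model libraries 2 and 3 gave -4.06. By group it was -2.73 (SE 0.52, adjusted p = 0.0213) in the model and -4.57 (SE 0.60, adjusted p = 0.00105) in XLHZ libraries against the same normal libraries, both in edgeR. Without XLHZ library 2 the value in XLHZ libraries was -5.39. The call in the model ended without any 1 of the 4 normal libraries (edgeR adjusted p of 0.0536 to 0.111). It also ended without model library 1 or 3 (0.0508 and 0.0756). The difference between XLHZ and model libraries was -1.84 (SE 0.67, adjusted p = 0.593, edgeR).

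miR-34c-3p, which has the same seed, showed the same order of groups but did not pass. It stood at 3.76, 2.94, 4.402 and 4.69 CPM in normal, 0.204, 1.56, 2.504 and 1.02 CPM in model, and 0.668, 1.44, 0.388 and 0.905 CPM in XLHZ libraries 1 to 4. The highest exposed library, model library 3, was below the lowest normal one. Exposed minus normal was -1.86 on the log2 scale (SE 0.42, edgeR adjusted p = 0.0608). It passed in 5 of 23 alternatives and not in the others. Those in which it passed included leaving out model library 3 (adjusted p = 0.0148, edgeR), upper-quartile factors (0.0338), library totals (0.0194) and DESeq2 (0.00396).

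The 5p arms of the same hairpins and their relatives had other values. miR-34c-5p stood at 105 ± 13.2 CPM in normal libraries and at 71.3 to 636 CPM in exposed libraries, with 7 of the 8 between 71.3 and 122 CPM and model library 3 at 636 CPM (log2 fold change 0.68, SE 0.54, adjusted p = 0.727, edgeR). Without model library 3 it was -0.02. miR-34b-5p stood at 21.1, 10.1, 30.4 and 93.6 CPM in normal libraries and 13.5 to 54.5 CPM in exposed ones (log2 fold change -0.58, SE 0.48, adjusted p = 0.742, edgeR), and without normal library 4 it was 0.41. The p53 target miR-34a-5p averaged 448 ± 206 CPM in normal and 611 ± 617 CPM in exposed libraries, the highest being model library 3 with 2128 CPM. miR-449a-5p, of multiciliated cells, averaged 11.2 ± 2.67 CPM in normal and 14.1 ± 4.24 CPM in exposed libraries. Of the 6 tested members of the p53-linked list 3 were higher and 3 lower, 1 passed, and the median log2 fold change was -0.12. Over all 417 miRNAs 228 were higher and 189 lower, 0.48% passed, and the median was 0.03.

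**Figure D2:**
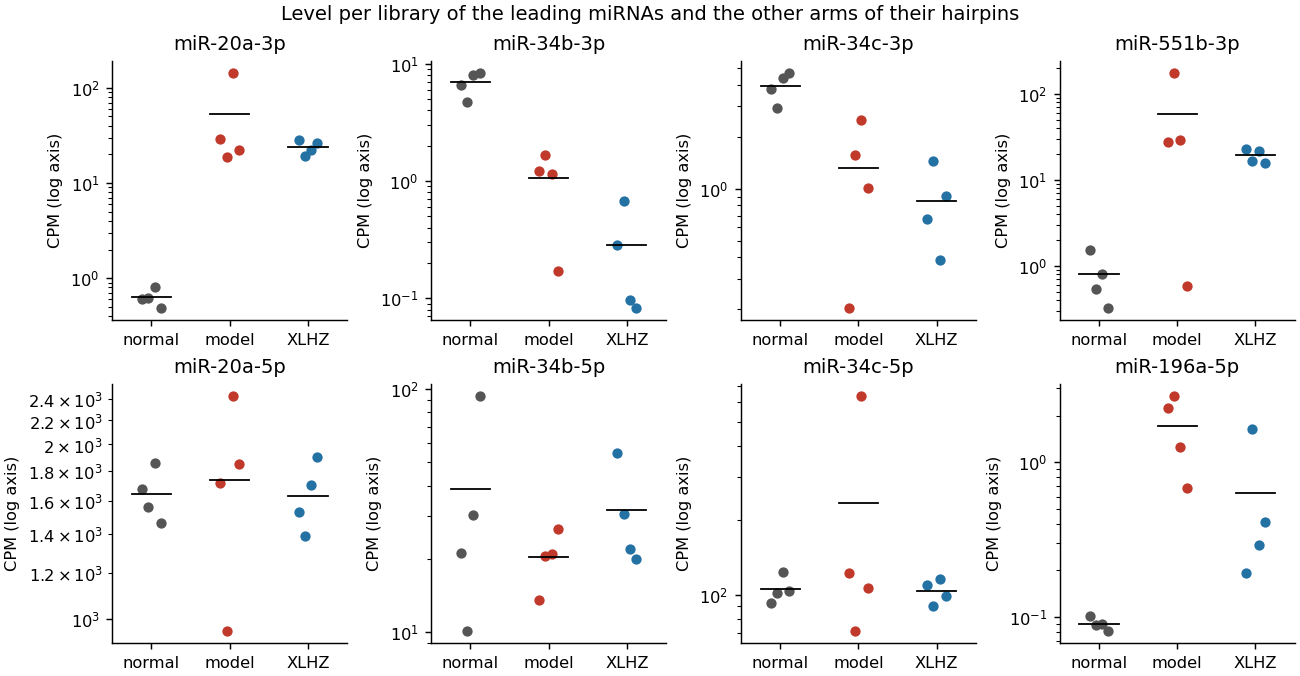
Level in CPM (log axis) of 8 miRNAs in each library, by group, with the group mean as a line. The 3p arms miR-20a-3p, miR-34b-3p and miR-34c-3p separate all 8 exposed from all 4 normal libraries, the 5p arms of the same hairpins overlap, and miR-551b-3p overlaps through model library 4 at 0.593 CPM.

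Arm balance was then tested directly, since both arms of a hairpin are counted in the same library and their ratio does not depend on how libraries are scaled. Of 124 hairpins with both arms at a mean of at least 1 CPM, 3 changed their 3p to 5p ratio at an adjusted p under 0.05 in limma, which is 2.42%. They were the hairpins miR-20a, miR-34b and miR-34c, named above. Their 3p counts are those already compared above, so these calls are not separate support for the fold changes. miR-20a-3p met the minimum of 1 CPM only through exposed libraries, with at most 0.809 CPM in normal ones. miR-34b-3p met it only through normal libraries, with a mean of 0.669 CPM in exposed ones. The 1 hairpin with a higher ratio is 0.806% of those tested and the 2 with a lower ratio are 1.61%. Without adjustment, 16 hairpins (12.9%) had a p under 0.05. The 3p arm of miR-20a made up 0.0331% to 0.0434% of its hairpin's counts in normal libraries and 1.20% to 5.59% in exposed ones (log2 ratio 5.46 higher, SE 0.33, adjusted p = 8.44e-09, limma). The 3p arm of miR-34b made up 23.8%, 31.9%, 20.8% and 8.17% in normal libraries 1 to 4 and 0.413% to 8.28% in exposed ones. These ranges overlapped: normal library 4, which had the highest miR-34b-5p of all libraries, lay just below model library 1. The log2 ratio of miR-34b was -3.64 relative to normal (SE 0.82, adjusted p = 0.0211, limma). The 3p arm of miR-34c made up 2.81% to 4.33% in normal and 0.167% to 2.15% in exposed libraries (log2 ratio difference -2.38, SE 0.51, adjusted p = 0.0211, limma). The calls of miR-34b and miR-34c both ended without normal library 1, 2 or 3, with adjusted p of 0.0791, 0.107 and 0.0739 for miR-34b and 0.0791, 0.0513 and 0.0686 for miR-34c. That of miR-34c also ended without normal library 4 (0.0672), while miR-20a passed in each of the 17 alternatives. Neither miR-34b nor miR-34c has both arms at a mean of 10 CPM, so neither was tested at that stricter minimum.

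**Figure D3:**
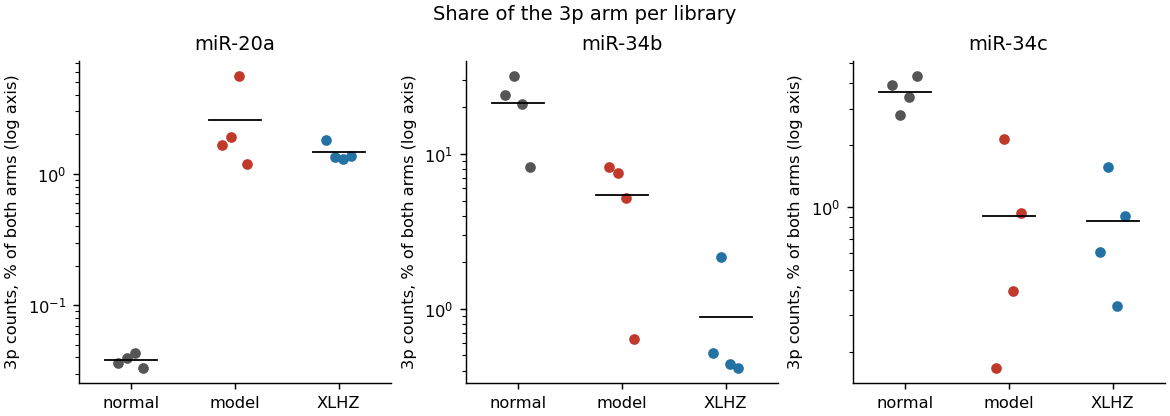
Share of the 3p arm in the counts of both arms (percent, log axis) per library for the 3 hairpins that passed, with group means as lines. miR-20a moves from at most 0.0434% in normal to at least 1.20% in exposed libraries, whereas miR-34b and miR-34c move down.

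Several further miRNAs had large fold changes without passing, and in some of them exposed libraries differed widely among themselves. miR-551b-3p, whose hairpin lies within the span of the gene Egfem1 in GRCr8, stood at 0.324 to 1.52 CPM in normal libraries. In model libraries 1 to 4 it stood at 27.7, 176, 29.5 and 0.593 CPM and in XLHZ libraries 1 to 4 at 23.01, 16.7, 21.9 and 15.9 CPM. It was high in 7 of 8 exposed libraries and at the normal level in model library 4. Normal libraries 1 to 4 had 15, 6, 9 and 4 counts, so only normal library 1 reached the filter's minimum of 10. miR-551b-3p was therefore tested only through its exposed libraries, where it is high. Exposed minus normal was 5.62 on the log2 scale (SE 1.22, edgeR adjusted p = 0.0608). It passed in 7 of 24 alternatives and not in the others, limma-trend among them (4.40, adjusted p = 0.0707). It passed in edgeR without model library 4 (adjusted p = 0.00588) or model library 2 (0.0122, with a log2 fold change of 4.63). It also passed on library totals (0.0194), with upper-quartile factors (0.0338), with no count filter (0.0469) and with DESeq2 (3.98e-10). miR-344a-3p stood at 6.45 ± 2.32 CPM in normal libraries, and model library 2 was highest here too, with 152 CPM against 5.42 to 35.2 CPM in the other 7 exposed libraries (log2 fold change 2.45, SE 0.80, adjusted p = 0.436, edgeR). Without model library 2 the log2 fold change was 1.54. DESeq2 called the miRNA over all libraries (2.46, adjusted p = 0.0198), the 1 of 24 alternatives in which it passed.

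miR-196a-5p, a miRNA encoded in the Hox clusters, was close to absent in normal mucosa. It had 1 count in each of the 4 normal libraries. In model libraries 1 to 4 it had 22, 24, 12 and 8 counts, and in XLHZ libraries 1 to 4 it had 2, 17, 3 and 5 counts. The pooled counts of 93 and 4 give a ratio of 11.9 between exposed and normal libraries, with an exact 95% interval of 4.50 to 44.7 for counting error only. It did not pass (log2 fold change 3.52, adjusted p = 0.115, edgeR), and DESeq2 called it (3.69, adjusted p = 0.00889), while limma-trend gave 1.95 (adjusted p = 0.210). DESeq2 was the 1 of 23 alternatives in which it passed. miR-196b-5p, its relative, averaged 1.41 ± 0.606 CPM in normal and 1.68 ± 1.02 CPM in exposed libraries.

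miR-144-5p, a red cell miRNA, stood at 5.58 to 8.94 CPM in normal libraries, at 18.02, 4.36, 7.41 and 38.9 CPM in model libraries 1 to 4 and at 40.7, 15.2, 33.4 and 20.7 CPM in XLHZ libraries (log2 fold change 1.63, SE 0.53, adjusted p = 0.436, edgeR). Model library 2 was below all normal libraries and all 4 XLHZ libraries were above them. miR-144-5p passed in 1 of 24 alternatives, without model libraries 2 and 3 (adjusted p = 0.00706, edgeR). Its other arm, miR-144-3p, had 22.6 ± 27.1 CPM in normal and 14.5 ± 7.95 CPM in exposed libraries. The further red cell miRNA miR-451-5p had 12.9 ± 6.37 CPM in normal and 22.1 ± 10.5 CPM in exposed libraries. Of the 4 tested members of the erythroid list 3 were higher and 1 lower, none passed, and the median was 0.50 (0.15 in the model, 0.77 in XLHZ libraries against the same normal libraries). The list's summed level was 44.7 to 162 CPM in normal, 34.5 to 133 CPM in model and 91.9 to 204 CPM in XLHZ libraries. The part of blood in these levels was not tested.

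Further differences without a call were found in both abundant and scarce miRNAs. let-7b-5p, of the differentiation-promoting let-7 family, stood at 15107 to 18126 CPM in normal and 11261 to 14785 CPM in exposed libraries (log2 fold change -0.27, SE 0.09, adjusted p = 0.436, edgeR). let-7a-5p and let-7f-5p, of the same family, had 50423 ± 1233 and 56958 ± 2240.1 CPM in normal and 48048 ± 2642 and 55081 ± 3493 CPM in exposed libraries. The skin-type epithelial miR-203b-3p stood at 19.01, 7.47, 7.46 and 8.898 CPM in normal libraries and 3.03 to 7.45 CPM in exposed ones (log2 fold change -0.92, SE 0.30, adjusted p = 0.436, edgeR). The groups thus barely separated, and the log2 fold change of miR-203b-3p was -1.03 to -0.49 over the alternatives. miR-204-5p, whose hairpin lies within the span of Trpm3, stood at 235 ± 18.1 CPM in normal libraries, 614 ± 367 CPM in model and 325 ± 88.4 CPM in XLHZ libraries (log2 fold change 1.00 for all exposed, adjusted p = 0.612, edgeR). miR-375-3p averaged 16831 ± 2867 CPM in normal and 11874 ± 3225 CPM in exposed libraries (log2 fold change -0.50, adjusted p = 0.720, edgeR). Of the rest of the 20 miRNAs lowest in p, 2 had log2 fold changes above 0, miR-139-5p (0.82) and miR-376b-3p (0.58). Those below 0 were miR-24-1-5p (-0.66), miR-423-5p (-0.62), miR-193a-5p (-0.54), miR-324-3p (-0.47), miR-339-3p (-0.46), let-7d-3p (-0.40) and miR-181b-5p (-0.40). Their adjusted p in edgeR was between 0.612 and 0.696.

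Described by lists of tissue and pathway miRNAs, exposed mucosa had medians within 0.2 of 0 in the miR-200, miR-183, intestinal, endothelial and fibroblast lists. The median log2 fold change of all 417 miRNAs was 0.03, with 228 higher and 189 lower, and 2 passed. Members of the miR-200 family, which hold cells in an epithelial state, had a median of 0.03 over 9 members (5 higher, 4 lower), with miR-200b-3p at 22812 ± 1834 CPM in normal and 23243 ± 3397 CPM in exposed libraries. The epithelial miR-183 cluster had 0.13 over 4, all higher, with miR-182 at 2599 ± 325 CPM in normal and 2704 ± 555 CPM in exposed libraries. The intestinal list (miR-192, miR-194, miR-215) had 0.18 over 4 (3 higher), with miR-194-5p at 6175 ± 1364 CPM in normal and 6934 ± 1921 CPM in exposed libraries. Endothelial miR-126a had -0.02 over its 2 arms, and 0.04 without model libraries 2 and 3, with miR-126a-3p at 19411 ± 543 CPM in normal and 18876 ± 2398 CPM in exposed libraries. Fibroblast miRNAs had -0.00 over 5, with miR-199a-3p at 10464 ± 254 CPM in normal and 9739 ± 1110.2 CPM in exposed libraries. No member of these lists passed.

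The endocrine, squamous and leukocyte lists had negative medians, and no member of them passed. Endocrine miR-375 and miR-7 had -0.20 over 5 members (4 lower), with miR-7a-5p at 5851 ± 838 CPM in normal and 5108 ± 974 CPM in exposed libraries. The squamous list, which marks forestomach epithelium, had -0.44 over 5 (4 lower). Its miR-205 stood at 6669.9, 3771, 3661 and 3426 CPM in normal libraries 1 to 4, against 1675 to 4070.4 CPM in exposed ones, so that normal library 1 was the highest of all. The log2 fold change of miR-205 was -0.49 to -0.15 over the alternatives. Leukocyte miRNAs had -0.23 over 7 (5 lower). Their summed level was 5009 ± 404 CPM in normal and 5026 ± 1280 CPM in exposed libraries, without a fall. Within that list miR-142-3p, found across blood lineages, averaged 2390.1 ± 412 CPM in normal and 2755 ± 952 CPM in exposed libraries, and the lymphocyte miRNA miR-150-5p averaged 1029 ± 186 CPM in normal and 875 ± 137 CPM in exposed libraries.

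Muscle lists had positive medians, larger in the model group, and no member of them passed. Smooth muscle miR-143 and miR-145 had a median log2 fold change of 0.33 over 4 arms, all higher. It was 0.63 in the model and -0.03 in XLHZ libraries, against the same normal libraries. Their most abundant arm, miR-143-3p, stood at 157626 ± 39484 CPM in normal, 243535 ± 104075 CPM in model and 154678 ± 70643 CPM in XLHZ libraries. Summed over the list, model libraries 2 and 3 had 412566 and 347320 CPM, and the highest of the normal libraries had 223294 CPM. Striated muscle miRNAs had 0.57 over 7 (6 higher), with 0.91 in the model and 0.02 in XLHZ libraries. Without model libraries 2 and 3 the medians of smooth and striated muscle were -0.03 and 0.05. Neuronal miRNAs had 0.15 over 15 (9 higher), and 0.05 without those libraries, with miR-9a-5p at 316 ± 68.9 CPM in normal and 383 ± 170.1 CPM in exposed libraries. The part of muscle in the other results was not tested.

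The imprinted Dlk1-Dio3 cluster, a large group of miRNAs known from placenta and brain, had a median of 0.19 over 42 tested members, with 36 higher and 6 lower and none passing. Over all 417 miRNAs tested 228 were higher and 189 lower. The median of the Dlk1-Dio3 cluster was 0.18 in the model and 0.19 in XLHZ libraries against the same normal libraries, and 0.16 without model libraries 2 and 3. Its summed level overlapped between groups, at 1021 ± 375 CPM in normal and 1105 ± 310 CPM in exposed libraries. Among its abundant members, miR-127-3p averaged 207 ± 67.7 CPM in normal and 210.5 ± 56.8 CPM in exposed libraries, and miR-434-3p averaged 121 ± 52.5 CPM in normal and 121 ± 45.2 CPM in exposed libraries. The miR-29 family, which targets collagens, had 0.19 over 6 (5 higher), and the let-7 family had -0.06 over 20 (14 lower). Inflammation-induced miRNAs had 0.16 over 10 (7 higher). Among them miR-21-5p averaged 35095 ± 4202 CPM in normal and 44126 ± 19304 CPM in exposed libraries, the highest being model library 3 with 90250 CPM. Liver miR-122-5p stood at 6.498 ± 3.99 CPM in normal libraries and 1.73 to 95.1 CPM in exposed ones. The hypoxia-induced miR-210-3p averaged 123 ± 21.5 CPM in normal and 151 ± 20.5 CPM in exposed libraries. The Drosha-independent list had a median of -0.21 over 2 members of opposite direction, miR-320-3p (0.32) and miR-484 (-0.75). Gastric gland candidates had 0.16 over 7 (5 higher, 2 lower), and liver and pancreas 0.88 over 2. The most abundant gland candidate, miR-148a-3p, had -0.23. The summed level of the gland list was 7422 ± 1023 CPM in normal and 6839 ± 1595 CPM in exposed libraries. The Hox list had 0.13 over 5, the hypoxia list 0.12 over 2, and miR-221 and miR-222 had 0.04 over 3.

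**Figure D4:**
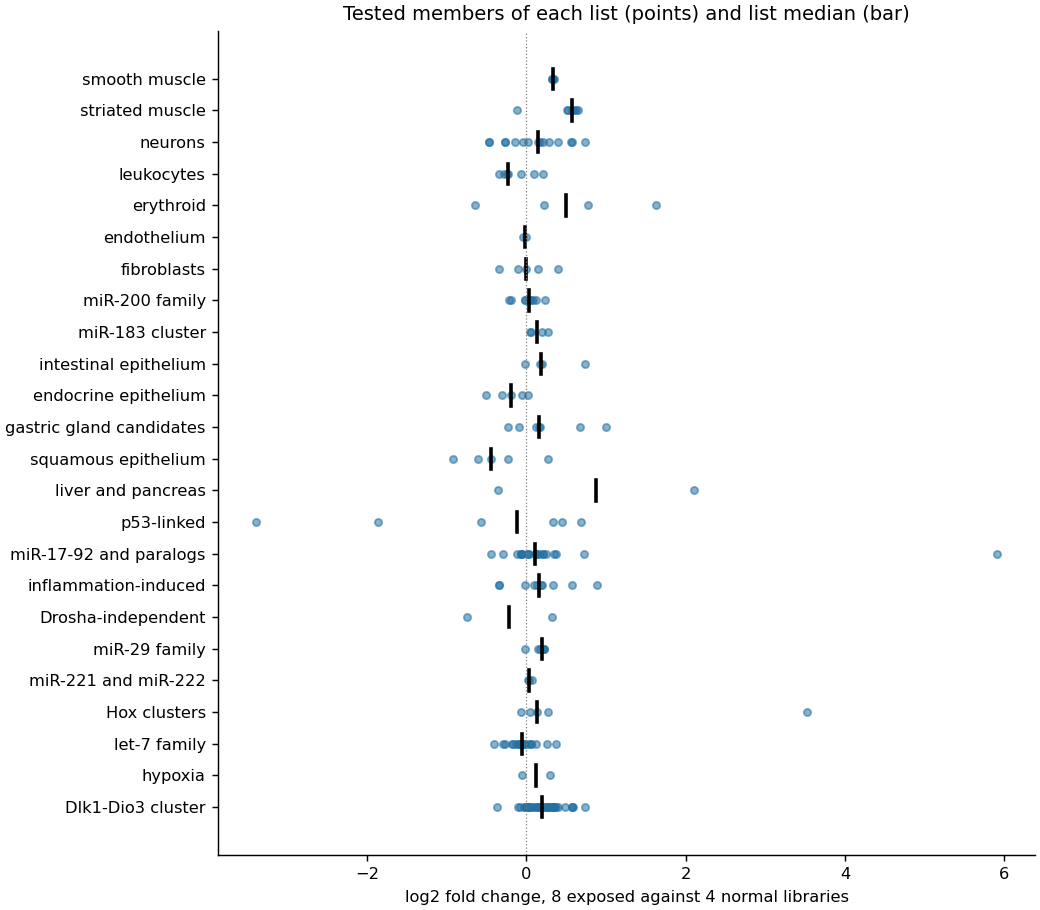
Log2 fold change of exposed against normal libraries (horizontal axis) for the tested members of each list (points), with the list median as a bar. Most members lie close to 0. miR-20a-3p at 5.91, miR-196a-5p at 3.52 and miR-34b-3p at -3.40 stand apart from the other members of their lists.

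Pooling the exposed groups hid 1 miRNA in which they differed. miR-320-3p, which matures without the Drosha step, stood at 108, 169.7, 169 and 236 CPM in normal libraries 1 to 4. It stood at 93.4, 97.3, 60.1 and 90.2 CPM in model libraries and 266, 539, 229.6 and 327 CPM in XLHZ libraries. The 4 model libraries lay below all normal libraries, and 3 of 4 XLHZ libraries lay above them. The log2 fold change was 0.32 for all exposed libraries (SE 0.52, adjusted p = 0.863), -1.0016 for the model (adjusted p = 0.293) and 1.00 for XLHZ libraries (adjusted p = 0.350), all in edgeR. XLHZ minus model was 2.00 (SE 0.30, adjusted p = 0.00812, edgeR), and that call ended without model library 2 (0.0540) or 3 (0.0812). It was the 1 miRNA of 417 (0.24%) that differed between the exposed groups, and without adjustment 5 higher (1.2%) and 22 lower miRNAs (5.28%) had a p under 0.05. In the same 3-group fit 4 miRNAs (0.959%) passed in the model against normal libraries, which were miR-20a-3p, miR-551b-3p and miR-196a-5p as higher and miR-34b-3p as lower. In XLHZ against normal libraries 2 (0.48%) passed, miR-20a-3p and miR-34b-3p. Without adjustment, p was under 0.05 for 24 higher (5.76%) and 14 lower (3.36%) miRNAs in the model and 13 higher (3.12%) and 9 lower (2.16%) in XLHZ libraries. Without any 1 of the normal libraries, or without model library 1, the calls in the model other than miR-20a-3p ended, with adjusted p of 0.0508 to 0.111. That of miR-551b-3p (log2 fold change 6.20) also ended with limma-trend (4.37, adjusted p = 0.261), and without model library 2 it was 4.61. That of miR-196a-5p also ended without model library 2 (adjusted p = 0.0736).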

How the data were processed

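Per the labels' protocols, QIAseq miRNA libraries of total RNA were sequenced by Illumina. The submitters' processing notes name Bowtie and DESeq, with no version. Where build, counting rule and use of molecular identifiers are concerned, nothing is stated in those notes or labels. Deposited by the authors were 2 tables of raw counts per mature miRNA, with CPM columns equal to each count over its column total (largest difference 5.0e-05, per the file headers and values). The CPM columns were used for that check only. The tables (639 and 632 miRNAs, 622 in both) were joined by name into 648. Model counts were identical for 621 of the 622, and the exception, miR-20b-3p, was left out. Absent entries, of at most 3 counts elsewhere, were taken as 0. Every pair of libraries in a group differed beyond counting noise (lowest chi-square per degree of freedom 172.1).

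Counts were fitted with edgeR 4.0.16 (glmQLFit and glmQLFTest, TMM, filterByExpr at its minimum of 10 counts, R 4.3.3) over all 12 libraries, as exposed against normal and with 3 group means. Standard errors are the log2 fold change over the square root of F. Arm balance was tested with limma 3.58.1 on log2 ratios with 0.5 added to each count. Benjamini-Hochberg adjustment ran over all tested miRNAs or hairpins. Replicate numbers were not taken to pair the libraries: no label says what a number shares, and 9 of 12 same-numbered pairs, not every one, had deviations correlated over 0.1. Scripts were tested on simulated counts. Members and 24 lists were chosen with earlier results of these data known. Named miRNAs were those that passed, filled to 20 by smallest p, their other arms, the 2 most abundant members of each list and hairpins that passed in arm balance. Alternatives were RLE, upper-quartile and total scaling, totals without the 5 most abundant miRNAs, other count filters, DESeq2 1.42.0, robust fits, limma-trend, a replicate block and leaving out libraries. Depth was 9094962 to 11556058 counts, and intervals cover counting error only.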

Additional observations from a re-analysis of the deposited data

Results flagged for a closer look

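In 32 of 324 group values checked, 1 library lay far from the rest of its group. Model and XLHZ libraries were checked in their own group and again among all exposed libraries, and some miRNAs were named for their differences. The checks were therefore not independent, and no rate expected by chance can be set beside them. Model library 3 was highest among exposed libraries for miR-20a-3p (143.45 CPM), miR-34c-5p (636.49), miR-34a-5p (2127.6), miR-21-5p (90250), miR-204-5p (1128.7), miR-204-3p (3.9644) and miR-31a-5p (5596.7), highest among model libraries for miR-146a-5p (6122.5), and lowest among exposed libraries for miR-205 (1675.3). Model library 2 was highest among exposed libraries for miR-551b-3p (175.87 CPM), miR-344a-3p (152.07), miR-193a-5p (47.599), miR-10a-5p (14258) and miR-10a-3p (141.12), and lowest for miR-200a-3p (18109). Model library 1 was highest of its group for miR-423-5p (146.01).

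Normal library 1 was highest of its group for miR-203b-3p (19.006 CPM), miR-142-3p (3001.2) and miR-205 (6669.9) and lowest for miR-193a-5p (34.759). Normal library 4 was lowest of its group for miR-19b-3p (2003.4) and highest for miR-222-3p (55.089). XLHZ library 1 was highest among exposed libraries for miR-34b-5p (54.509) and miR-486 (101.86). XLHZ library 2 stood apart from its group for miR-196a-5p (1.6333, high) and miR-31a-5p (2942.8, low), and XLHZ library 3 for let-7f-5p (62077, high).

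miR-320-3p differed between the exposed groups (XLHZ minus model 2.00 on the log2 scale, adjusted p = 0.00812, edgeR), with its values given in the report. miR-20b-3p, which was not tested, had 251, 152, 1003 and 254 counts in model libraries 1 to 4 and 298, 195, 246 and 336 in XLHZ libraries 1 to 4 in the deposited table of those groups. The other table gives 5, 2, 0 and 0 counts for the same model libraries and 3, 3, 7 and 5 for normal libraries 1 to 4, so the tables give no common direction for it.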

How the results depend on the processing

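miR-20a-3p and miR-34b-3p passed in all 24 alternatives of exposed against normal, with log2 fold changes of 5.17 to 6.07 and -4.06 to -3.22 (adjusted p up to 0.0108 and 0.0213). Counts of calls moved more. Higher miRNAs numbered 1, and 2 with upper-quartile factors, on library totals or with no count filter, 4 with DESeq2, 3 without model replicates 2 and 3, and 1 to 2 with 1 library left out. Lower miRNAs numbered 1, and 2 with upper-quartile factors, on totals, with DESeq2 or without model replicates 2 and 3, and 1 to 2 with 1 library left out. In the model against normal, 3 higher became 5 (DESeq2), 1 (without model replicates 2 and 3) and 1 to 5 (1 library left out), and 1 lower became 0 (without model replicates 2 and 3) and 0 to 1. In XLHZ against normal, 1 higher became 3 (DESeq2), 4 (without model replicates 2 and 3) and 1 to 2, and 1 lower became 2, 2 and 1 to 2 in the same order. In XLHZ against model, 1 higher became 0 (without model replicates 2 and 3) and 0 to 1. Hairpins with a higher 3p share numbered 1, 2 with no filter and 1 with 1 library left out, and those with a lower one 2, 0 at 10 CPM and 0 to 2. Groups that did not overlap numbered 3 higher, 3 to 5 with 1 library left out, and 4 lower, 2 on totals, with upper-quartile or RLE factors, and 2 to 4. The cause was not tested.

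The replicate number as a block, which was not taken to pair the libraries (correlations of -0.41 to 0.52 over 12 pairs, 9 of them over 0.1, 5 of 12 libraries closest to their own number), gave 1 higher and 1 lower miRNA for exposed against normal, 0 lower (miR-34b-3p, adjusted p = 0.0540, edgeR) and 2 higher in the model, where miR-551b-3p no longer passed (5.42, adjusted p = 0.0647, edgeR), and 2 hairpins with a higher 3p share.

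Among the arms of miR-20a, miR-34b and miR-34c, the sign of exposed against normal turned for miR-20a-5p (-0.02 with upper-quartile factors, -0.01 on totals, -0.00 with limma-trend, -0.02 to 0.15 with 1 library left out), miR-34b-5p (-0.93 to 0.41) and miR-34c-5p (-0.06 with DESeq2, -0.02 to 0.79 with 1 library left out). Over all alternatives the range spanned 0 for 30 of 82 named miRNAs, such as miR-144-3p (-0.97 to 0.64), miR-34a-5p (-0.26 to 0.76) and miR-320-3p (-0.03 to 0.58). In XLHZ against model it turned for miR-20a-3p (-1.41 to 0.03 with 1 library left out), miR-551b-3p (0.07 with limma-trend, -2.00 to 0.03 with 1 library left out, 0.46 without model replicates 2 and 3) and miR-34c-3p (0.40 without those). With 1 to 15 counts in exposed libraries, depth limits how exactly the level of miR-34b-3p is known.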
